A study of Mus musculus with 13 samples.

Results

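The collagen genes described here were 10 genes that encode collagen chains: Col1a1, Col1a2, Col3a1, Col5a2, Col27a1, Col14a1, Col4a1, Col4a2, Col4a5 and Col18a1. They were chosen by mouse symbol and are 10 of the 53392 genes in the count table, in which 44 genes have a collagen chain symbol. All 10 were among the 14317 genes that passed the filter on low counts and were tested, and the lowest count of any of them in any mouse was 47, for Col5a2.

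RNaseq was performed on whole liver from 13 female mice aged 8 to 14 weeks, with 1 library per mouse. Every mouse received 28% of its calories as ethanol in a liquid diet for 4 weeks and was homozygous for 2 transgenes, Albumin-Cre and Rosa26-loxP-stop-loxP-rtTA. TRE-ASAH1, the transgene for acid ceramidase, was present in ASAH+ mice and absent from ASAH− littermates, and it is switched on by Dox in hepatocytes, the cells in which Albumin-Cre acts. The groups were 4 ASAH− mice given Dox at 200 mg/l (ASAH− Etoh-Dox), 5 ASAH+ mice given the same dose (ASAH+ Etoh-Dox) and 4 ASAH+ mice without Dox (ASAH+ Etoh). The deposited libraries hold no group without ethanol and no ASAH− mice without Dox. The titles of the ASAH+ samples name the opposite Dox treatment from their descriptions and induction labels, and the latter were used.

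Collagens are matrix proteins whose alpha chains wind around each other into a helix. Fibrillar collagens such as types I, III and V build the fibers of scar tissue, and in liver they come mainly from hepatic stellate cells and portal fibroblasts, whereas type IV collagen forms the network of basement membranes. Col18a1, the gene of a basement membrane zone proteoglycan from which endostatin is released, is also expressed by hepatocytes.

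Between 17819486 and 35358711 counts were assigned to genes per mouse. The totals were 22000529, 26254612, 24909341 and 27844993 in ASAH− Etoh-Dox replicates 1 to 4. In ASAH+ Etoh-Dox replicates 1 to 5 they were 35358711, 26316303, 28107945, 24435195 and 23226459. The ASAH+ Etoh replicates 1 to 4 had 21536448, 24454043, 22359614 and 17819486. Levels are given as CPM, counts scaled to a library total of 1000000 after correction by the trimmed mean of M-values (TMM). Counting error amounted to 0.615% of the mean count for Col18a1 and to 10.8% for Col4a5, which averaged 85.5 counts. Reads copied by PCR were not marked by molecule, so these percentages cover counting error only.

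The level of Asah1 was used to check the group labels. Asah1 lay between 9668 and 15935 CPM in ASAH+ Etoh-Dox mice, between 40.0 and 55.0 CPM in ASAH− Etoh-Dox mice and between 44.2 and 48.3 CPM in ASAH+ Etoh mice. Induction was thus present in all 5 mice whose descriptions name Dox and the transgene and in 0 of the other 8. The log2 fold change of Asah1 in ASAH+ Etoh-Dox mice was 8.01 (SE 0.20, adjusted p = 1.24e-11) against ASAH− Etoh-Dox and 8.10 (SE 0.21, adjusted p = 1.13e-11) against ASAH+ Etoh, by the edgeR quasi-likelihood test with Benjamini-Hochberg adjustment over 14317 genes. The hepatocyte gene Alb averaged 90337 CPM, and the pancreas and adipose markers, of which Pnlip and Lep were at 0 in all mice, each summed to at most 0.411 CPM in any mouse.

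One library stood apart in collagen level. ASAH− Etoh-Dox replicate 3 had the highest value of the 13 mice for Col1a1, Col1a2, Col3a1, Col4a1, Col4a2, Col14a1 and Col18a1. The same mouse had the highest sums of Kupffer cell markers (760 CPM), hepatic stellate cell markers (568 CPM), sinusoidal endothelial markers (366 CPM), other endothelial markers (89.5 CPM), portal fibroblast markers (16.4 CPM) and hepatocyte markers (142878 CPM), and their part in the collagen levels was not tested. In bulk RNA, fewer cells of a type and less RNA per cell cannot be told apart. Many of the values below that rest on this mouse are also given without it.

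**Figure D1:**
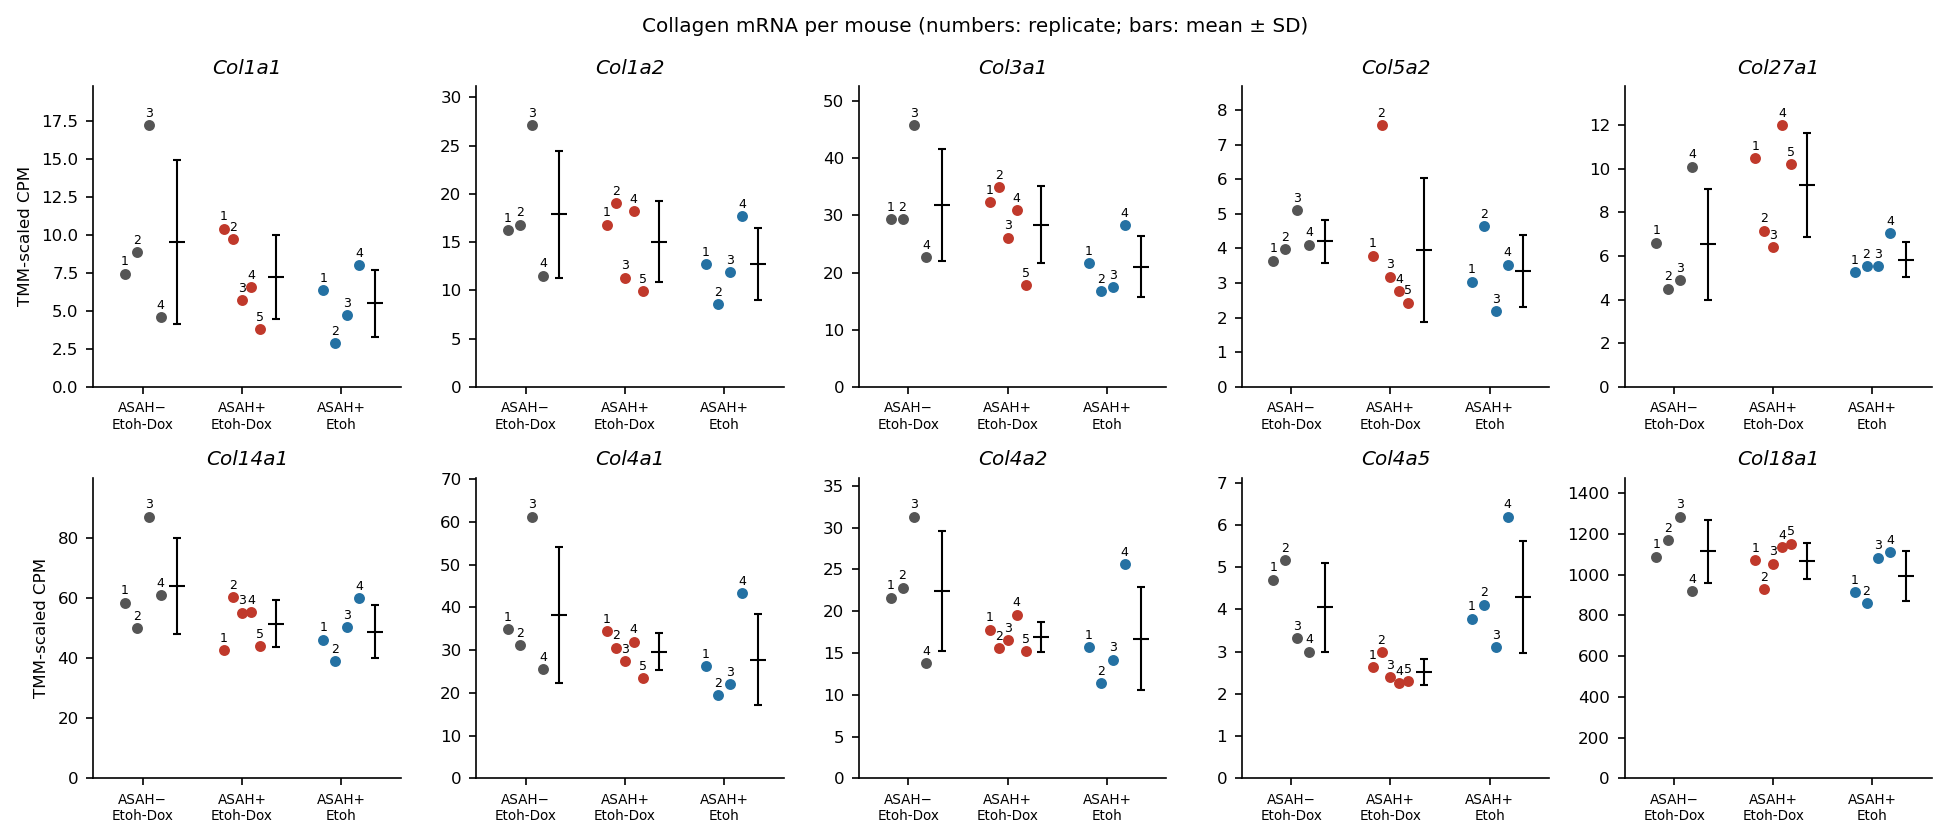
TMM-scaled CPM of the 10 collagen genes in each of 13 mice, numbered by replicate, with bars for the mean ± SD of each group. ASAH− Etoh-Dox replicate 3 has the highest Col1a1 value (17.2 CPM), and the 5 ASAH+ Etoh-Dox mice have the lowest Col4a5 values (2.25 to 2.99 CPM).

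The comparison of ASAH+ with ASAH− Etoh-Dox mice asks what accompanies the induced transgene when Dox and ethanol are the same. The estimated fold change was below 1 for 9 of the 10 collagen genes and above 1 for Col27a1, with log2 values from −0.68 for Col4a5 to 0.50 for Col27a1. Their median was −0.28, beside 0.00 for all 14317 genes, for which the quartiles were −0.11 and 0.09 and 49.3% of genes were higher. None of these differences passed the test: edgeR called 0 of the 10 genes at an adjusted p under 0.1, where 0.0140% of all genes were called, namely Asah1 and Sod1 (log2 fold change 0.69, adjusted p = 0.0212, named after its value was seen). At an unadjusted p under 0.05, 1 of the 10 and 409 of all genes were found, and DESeq2 on all 13 mice called 0 of the 10 and 0.0756% of all genes. By edgeR only 1 gene was called with replicate as a block, on the groups compared alone, or without ASAH− Etoh-Dox replicate 1, 3 or 4. Col4a5 was the 1 collagen gene whose groups did not overlap, where 0.887% of all genes did not overlap. Without ASAH− Etoh-Dox replicate 3, the collagen genes divided into 6 higher and 4 lower, with a median of 0.01. The division was 2 higher and 8 lower without ASAH+ Etoh-Dox replicate 4 (median −0.33) or replicate 5 (median −0.17). With replicate as a block it was 1 higher and 9 lower, with a median of −0.15.

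The comparison of ASAH+ Etoh-Dox with ASAH+ Etoh mice asks what accompanies induction within 1 genotype, with Dox itself differing too. Here 9 of the 10 collagen genes were estimated higher with Dox and Col4a5 lower, with log2 fold changes from −0.77 for Col4a5 to 0.66 for Col27a1. The median was 0.17, beside 0.01 for all genes, of which 53.0% were higher. edgeR called 0 of the 10 genes, where 0.0140% of all genes were called, again Asah1 and Sod1 (log2 fold change 1.02, adjusted p = 0.000197). The unadjusted p was under 0.05 for 2 of the 10 and for 1044 of all genes. DESeq2 on all 13 mice called 0 of the 10 but, after its own filter, gave an adjusted p to 2 of them and to 3198 genes, of which it called 2.97%, and DESeq2 on the groups compared called 1, Col4a5, where it called 0.821% of all genes (113 of 13768). Groups of 1 collagen gene, Col4a5, did not overlap, where 2.58% of all genes did not overlap. Single mice moved these counts. They became 6 higher and 4 lower without ASAH+ Etoh replicate 2 (median 0.07) and 7 and 3 without replicate 3 (median 0.11). They became 8 and 2 without ASAH+ Etoh replicate 1 (median 0.13), ASAH+ Etoh-Dox replicate 2 (median 0.12) or ASAH+ Etoh-Dox replicate 4 (median 0.13). Without ASAH+ Etoh replicate 4 they were unaltered and the median was 0.34.

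The comparison of ASAH− Etoh-Dox with ASAH+ Etoh mice sets side by side the groups without induction, which differ in both genotype and Dox. Col4a5 was estimated lower in ASAH− Etoh-Dox mice and the other 9 collagen genes higher, with log2 fold changes from −0.08 for Col4a5 to 0.80 for Col1a1. The median was 0.41, beside 0.02 for all genes, of which 53.2% were higher. With edgeR 0 of the 10 genes were called, where 0.0140% of all genes were called, namely the mitochondrial genes mt-Co2 (log2 fold change 1.50, adjusted p = 0.0800) and mt-Co3 (0.74, adjusted p = 0.0633), both named after their values were seen. There were 0 calls at an adjusted p under 0.05, with replicate as a block, with edgeR on the groups compared alone, and on leaving out any of 10 of the 13 mice. The unadjusted p was under 0.05 for 2 of the 10 and for 1316 of all genes, and DESeq2 on all 13 mice called 0 of the 10 and 1.49% of all genes. No collagen gene (0 of 10) had groups that did not overlap, where 5.50% of all genes did not overlap. Without ASAH− Etoh-Dox replicate 3 all 10 genes were higher and the median was 0.22, and without ASAH+ Etoh replicate 4 all 10 were higher and the median was 0.58. Each group takes part in 2 of the 3 comparisons, so the comparisons are not independent of each other.

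**Figure D2:**
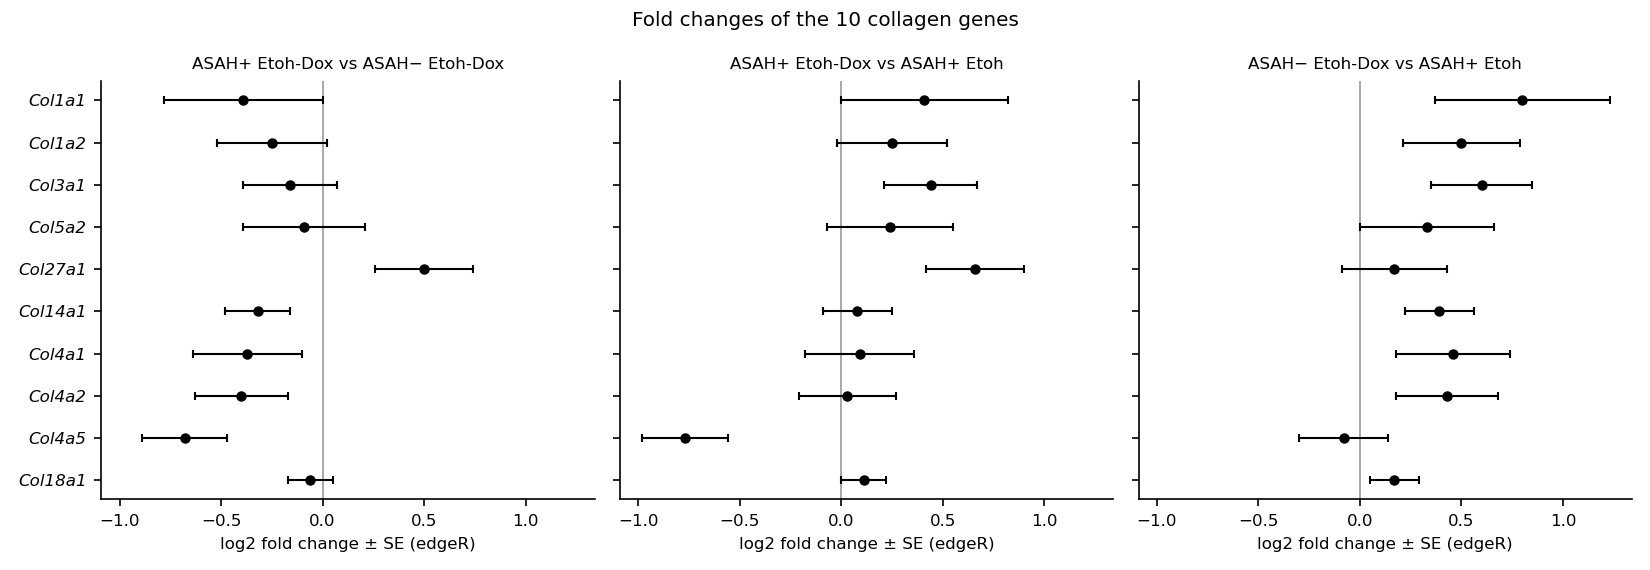
Log2 fold change ± SE of the 10 collagen genes in the 3 comparisons, from the edgeR fit of all genes. Col4a5 lies at −0.68 and −0.77 where ASAH+ Etoh-Dox mice are compared and at −0.08 between the other groups, and Col1a1 has the widest error (SE 0.39 to 0.43).

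Col1a1 and Col1a2 encode the chains of type I collagen, the main collagen of fibrous scar, and lie at chr11:94936224-94953042 and chr6:4504814-4541544 (GRCm38). Col1a1 measured 7.44, 8.86, 17.2 and 4.58 CPM in ASAH− Etoh-Dox replicates 1 to 4, 10.4, 9.69, 5.71, 6.54 and 3.77 CPM in ASAH+ Etoh-Dox replicates 1 to 5, and 6.36, 2.85, 4.73 and 7.98 CPM in ASAH+ Etoh replicates 1 to 4. The groups overlapped throughout, and both the highest and a low value belonged to ASAH− Etoh-Dox mice. Its log2 fold change between ASAH+ and ASAH− Etoh-Dox mice was −0.39 (SE 0.39, edgeR adjusted p = 1.00, exact permutation p = 0.492). The value was 0.06 without ASAH− Etoh-Dox replicate 3, and it ranged down to −0.62 without replicate 4. Between ASAH− Etoh-Dox and ASAH+ Etoh mice it was 0.80 (SE 0.43, edgeR adjusted p = 0.602, exact permutation p = 0.229), and 0.35 without ASAH− Etoh-Dox replicate 3. Against ASAH+ Etoh, ASAH+ Etoh-Dox mice differed by 0.41 (SE 0.41), or 0.19 without ASAH+ Etoh replicate 2 and 0.64 without ASAH+ Etoh replicate 4. Col1a1 varied among mice of 1 group by an SD of 0.66 on the log2 scale, beside a median of 0.22 for 1901 genes of like count.

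Col1a2 ranged from 8.59 to 27.1 CPM, with group means of 17.9 ± 6.54 (SD, n = 4) in ASAH− Etoh-Dox, 15.0 ± 4.16 (SD, n = 5) in ASAH+ Etoh-Dox and 12.7 ± 3.77 CPM (SD, n = 4) in ASAH+ Etoh mice. All 3 groups overlapped, and ASAH− Etoh-Dox replicate 3 was again the highest. The log2 fold change of Col1a2 was −0.25 (SE 0.27) between ASAH+ and ASAH− Etoh-Dox mice, 0.25 (SE 0.27) between ASAH+ Etoh-Dox and ASAH+ Etoh and 0.50 (SE 0.29) between ASAH− Etoh-Dox and ASAH+ Etoh. Leaving out ASAH− Etoh-Dox replicate 3 gave 0.02 in the first and 0.23 in the last of these, and leaving out ASAH+ Etoh replicate 2 or 4 gave 0.10 or 0.44 in the other. Without ASAH− Etoh-Dox replicate 4 the first was −0.41.

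Col3a1 (chr1:45311538-45349706), the chain of type III collagen, measured 29.4, 29.4, 45.8 and 22.7 CPM in ASAH− Etoh-Dox replicates 1 to 4, 32.3, 34.9, 26.1, 30.9 and 17.8 CPM in ASAH+ Etoh-Dox replicates 1 to 5, and 21.7, 16.8, 17.4 and 28.3 CPM in ASAH+ Etoh replicates 1 to 4. Most Etoh-Dox mice of both genotypes lay above most ASAH+ Etoh mice, but ASAH+ Etoh-Dox replicate 5 lay among the lowest and ASAH+ Etoh replicate 4 among the Dox mice. The largest difference was between ASAH− Etoh-Dox and ASAH+ Etoh, at a log2 fold change of 0.60 (SE 0.25, edgeR p = 0.0303, adjusted p = 0.495, exact permutation p = 0.0571), or 0.37 without ASAH− Etoh-Dox replicate 3. ASAH+ Etoh-Dox and ASAH+ Etoh mice differed by 0.44 (SE 0.23, edgeR adjusted p = 0.713), and this difference kept its sign with each of the 13 mice left out in turn (0.34 to 0.60). ASAH+ and ASAH− Etoh-Dox mice differed by −0.16 (SE 0.23), or 0.07 without ASAH− Etoh-Dox replicate 3 and −0.29 without replicate 4.

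Col5a2 (chr1:45374321-45503282), a chain of type V collagen, which helps to set fibril diameter, ranged from 2.18 to 7.56 CPM. The highest value was that of ASAH+ Etoh-Dox replicate 2, and the other mice of its group lay between 2.43 and 3.79 CPM. Its group means were 4.21 ± 0.625 (SD, n = 4) in ASAH− Etoh-Dox, 3.95 ± 2.09 (SD, n = 5) in ASAH+ Etoh-Dox and 3.35 ± 1.03 CPM (SD, n = 4) in ASAH+ Etoh mice. The log2 fold change was −0.09 (SE 0.30) between ASAH+ and ASAH− Etoh-Dox mice and 0.24 (SE 0.31) between ASAH+ Etoh-Dox and ASAH+ Etoh. Without ASAH+ Etoh-Dox replicate 2 these became −0.46 and −0.13. The first was 0.02 without ASAH− Etoh-Dox replicate 3, 0.01 without ASAH+ Etoh-Dox replicate 4 and 0.05 without ASAH+ Etoh-Dox replicate 5, so its sign turned with single mice. For ASAH− Etoh-Dox against ASAH+ Etoh mice it was 0.33 (SE 0.33), or 0.53 without ASAH+ Etoh replicate 2 and 0.15 without ASAH+ Etoh replicate 3.

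Col27a1 (chr4:63214004-63334991), the fibrillar chain of type XXVII best known from cartilage, measured 10.5, 7.17, 6.40, 12.0 and 10.2 CPM in ASAH+ Etoh-Dox replicates 1 to 5, 6.62, 4.51, 4.90 and 10.1 CPM in ASAH− Etoh-Dox replicates 1 to 4, and 5.25, 5.53, 5.52 and 7.05 CPM in ASAH+ Etoh replicates 1 to 4. Induced mice held the 3 highest values, although ASAH− Etoh-Dox replicate 4 reached nearly as high and ASAH+ Etoh-Dox replicate 3 lay within the range of both other groups. Against ASAH+ Etoh the log2 fold change was 0.66 (SE 0.24, edgeR p = 0.0159, adjusted p = 0.568, exact permutation p = 0.0317). It was 0.50 (SE 0.24, edgeR p = 0.0555, adjusted p = 1.00, exact permutation p = 0.111) against ASAH− Etoh-Dox, and 0.79 without ASAH− Etoh-Dox replicate 4. The groups without induction differed by 0.17 (SE 0.26), or −0.13 without ASAH− Etoh-Dox replicate 4. Among the 10 genes, Col27a1 thus had a sign opposite to the other fibrillar genes between the genotypes on Etoh-Dox, with all mice included. Of the fibrillar genes outside the 10, Col5a3 (0.43, SE 0.46) and Col11a2 (0.34, SE 0.38) were also estimated higher there, and Col5a1 (−0.20, SE 0.25) lower.

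Col14a1 (chr15:55307750-55520803), which encodes a collagen that attaches to the surface of fibrils, measured 58.3, 49.9, 86.9 and 60.8 CPM in ASAH− Etoh-Dox replicates 1 to 4, 42.5, 60.2, 55.0, 55.2 and 43.8 CPM in ASAH+ Etoh-Dox replicates 1 to 5, and 46.1, 38.9, 50.2 and 59.8 CPM in ASAH+ Etoh replicates 1 to 4. Apart from ASAH− Etoh-Dox replicate 3 the mice of all groups lay in 1 range. The log2 fold change was 0.39 (SE 0.17, edgeR p = 0.0413, adjusted p = 0.524, exact permutation p = 0.143) between ASAH− Etoh-Dox and ASAH+ Etoh mice, or 0.21 without that mouse. Between ASAH+ and ASAH− Etoh-Dox mice it was −0.32 (SE 0.16, edgeR adjusted p = 1.00), or −0.13 without that mouse, and between ASAH+ Etoh-Dox and ASAH+ Etoh it was 0.08 (SE 0.17), or −0.02 without ASAH+ Etoh replicate 2.

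Col4a1 and Col4a2 encode the chains of the common type IV network. They lie head to head on chromosome 8 at chr8:11198423-11312826 and chr8:11312805-11449287, and the annotated genes share 22 bases at chr8:11312805-11312826. Col4a1 lies on the minus strand and Col4a2 on the plus strand, and the libraries were made with a stranded kit. How salmon assigned reads from the shared stretch was not tested. Col4a1 measured 34.9, 31.1, 61.2 and 25.5 CPM in ASAH− Etoh-Dox replicates 1 to 4, 34.5, 30.6, 27.4, 32.0 and 23.4 CPM in ASAH+ Etoh-Dox replicates 1 to 5, and 26.3, 19.5, 22.0 and 43.3 CPM in ASAH+ Etoh replicates 1 to 4. The 5 induced mice were close together, whereas each of the other groups held 1 high mouse. The log2 fold change of Col4a1 was −0.37 (SE 0.27, edgeR adjusted p = 1.00) between ASAH+ and ASAH− Etoh-Dox mice and −0.04 without ASAH− Etoh-Dox replicate 3. For ASAH− Etoh-Dox against ASAH+ Etoh mice it was 0.46 (SE 0.28), 0.14 without that mouse and 0.73 without ASAH+ Etoh replicate 4. ASAH+ Etoh-Dox and ASAH+ Etoh mice differed by 0.09 (SE 0.27), 0.38 without ASAH+ Etoh replicate 4 and −0.04 without ASAH+ Etoh replicate 2.

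Col4a2 followed with 11.4 to 31.3 CPM. Its means were 22.4 ± 7.15 (SD, n = 4) in ASAH− Etoh-Dox, 17.0 ± 1.78 (SD, n = 5) in ASAH+ Etoh-Dox and 16.7 ± 6.21 CPM (SD, n = 4) in ASAH+ Etoh mice. The same mice as for Col4a1, ASAH− Etoh-Dox replicate 3 and ASAH+ Etoh replicate 4, were the highest. Its log2 fold changes were −0.40 (SE 0.23) for ASAH+ against ASAH− Etoh-Dox mice, 0.03 (SE 0.24) for ASAH+ Etoh-Dox against ASAH+ Etoh and 0.43 (SE 0.25) for ASAH− Etoh-Dox against ASAH+ Etoh. Leaving out ASAH− Etoh-Dox replicate 3 gave −0.19 in the first and 0.22 in the last. Leaving out ASAH+ Etoh replicate 4 gave 0.30 and 0.68 in the comparisons with ASAH+ Etoh, and leaving out ASAH+ Etoh replicate 2 gave −0.12 and 0.28.

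Col4a5 (chrX:141475385-141689234) encodes a less abundant type IV chain, known from the kidney disease Alport syndrome. It measured 4.70, 5.16, 3.31 and 3.00 CPM in ASAH− Etoh-Dox replicates 1 to 4, 2.63, 2.99, 2.39, 2.25 and 2.30 CPM in ASAH+ Etoh-Dox replicates 1 to 5, and 3.78, 4.11, 3.11 and 6.19 CPM in ASAH+ Etoh replicates 1 to 4. All 5 induced mice lay below all 8 others, the narrowest gap being between ASAH+ Etoh-Dox replicate 2 and ASAH− Etoh-Dox replicate 4. The group means were 4.04 ± 1.05 (SD, n = 4), 2.51 ± 0.306 (SD, n = 5) and 4.30 ± 1.33 CPM (SD, n = 4) in the same order. The log2 fold change was −0.68 (SE 0.21, edgeR p = 0.00632, adjusted p = 1.00, exact permutation p = 0.0159) against ASAH− Etoh-Dox and −0.77 (SE 0.21, edgeR p = 0.00303, adjusted p = 0.505, exact permutation p = 0.0159) against ASAH+ Etoh. An exact p of 0.0159 is the smallest that 5 mice against 4 allow, and Col4a5 is 1 of 10 genes so examined. The 10 genes were chosen with earlier results of these data known, so these exact p-values are descriptions and no independent support. Between the groups without induction the log2 fold change was −0.08 (SE 0.22, exact permutation p = 0.857), or 0.12 without ASAH+ Etoh replicate 4. Neither difference was called by edgeR.

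The lower level of Col4a5 in induced mice kept its sign with each mouse left out, from −0.80 to −0.54 against ASAH− Etoh-Dox and from −0.90 to −0.55 against ASAH+ Etoh. DESeq2 on ASAH+ Etoh-Dox and ASAH+ Etoh mice alone gave an adjusted p of 0.0792 for Col4a5, past the threshold, in a range over the alternatives from 0.0792 to 0.862. Scaling by library totals in place of TMM, an alternative chosen after seeing the data, made the groups overlap in both comparisons, so that 0 collagen genes were without overlap, beside 0.936% and 2.84% of all genes. The counts behind these levels were few, from 53 to 134 per mouse, and the 5 induced mice had 95, 83, 66, 56 and 53. The within-group SD of Col4a5 was 0.32 on the log2 scale, beside a median of 0.30 for 1523 genes of like count. Across the 13 mice Col4a5 had a Pearson r of −0.55 with the total counts (permutation p = 0.0497, 0.166 after Benjamini-Hochberg adjustment over 10 relations chosen after the values were seen), with a Spearman rho of −0.46 (permutation p = 0.120, adjusted p = 0.369). It was −0.24 without the 2 farthest mice, ASAH+ Etoh-Dox replicate 1 and ASAH+ Etoh replicate 4, and −0.31 within groups, and the part of depth in the result was not tested.

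Col18a1 (chr10:77052178-77166548) measured 1088, 1169, 1284 and 918 CPM in ASAH− Etoh-Dox replicates 1 to 4, 1072, 927, 1054, 1135 and 1152 CPM in ASAH+ Etoh-Dox replicates 1 to 5, and 913, 861, 1083 and 1110 CPM in ASAH+ Etoh replicates 1 to 4. The highest mouse was 1.49-fold above the lowest, the narrowest range of the 10 genes, and the groups overlapped. Its log2 fold changes were −0.06 (SE 0.11) for ASAH+ against ASAH− Etoh-Dox mice, 0.11 (SE 0.11) for ASAH+ Etoh-Dox against ASAH+ Etoh and 0.17 (SE 0.12) for ASAH− Etoh-Dox against ASAH+ Etoh. Without ASAH− Etoh-Dox replicate 3 the first was 0.01 and the last 0.09, and without ASAH+ Etoh replicate 2 the other was 0.04.

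Levels of different genes were compared per kilobase of annotated exons. Col18a1 stood first with 151 ± 17.4 CPM per kilobase (SD over 13 mice), followed by Col14a1 (7.76 ± 1.74), Col4a1 (4.24 ± 1.46), Col4a2 (2.80 ± 0.835) and Col3a1 (2.77 ± 0.833). The lower places were taken by Col1a2 (1.22 ± 0.398), Col1a1 (1.13 ± 0.566), Col27a1 (0.565 ± 0.190), Col4a5 (0.526 ± 0.180) and Col5a2 (0.401 ± 0.145). Neighbors in this order were not always apart. Col4a2 exceeded Col3a1 in 8 of 13 mice, with a mean log2 ratio of 0.02 ± 0.27 (SD), and Col27a1 exceeded Col4a5 in 6 of 13 mice, with a mean log2 ratio of 0.10 ± 0.83. The 6 mice were all 5 ASAH+ Etoh-Dox mice and ASAH− Etoh-Dox replicate 4. By group mean Col27a1 was below Col4a5 in ASAH− Etoh-Dox (0.501 against 0.602 CPM per kilobase) and ASAH+ Etoh mice (0.449 against 0.640), but per kilobase of the longest transcript it was above in both (0.857 against 0.619 and 0.767 against 0.657), so this order rests on the length used. Col1a2 exceeded Col1a1 in 11 of 13 mice (0.20 ± 0.29) and Col4a5 exceeded Col5a2 in 10 of 13 (0.40 ± 0.58), so these neighbors kept their order in most mice though not in all. By mean of ASAH+ Etoh-Dox mice, Col4a2 was below Col3a1 (2.56 against 2.89 CPM per kilobase) and Col4a5 below Col5a2 (0.374 against 0.411). By mean of ASAH− Etoh-Dox mice, Col1a2 was just below Col1a1 (1.44 against 1.45). The other groups kept the order of these pairs. Per kilobase of the longest transcript, Col1a2 was well above Col1a1 in ASAH− Etoh-Dox mice (3.35 against 1.60 CPM) and over all mice (2.84 against 1.25 CPM). The order also depends on the length used: per kilobase of the longest transcript Col3a1 (4.89 CPM) moved from place 5 to place 3, and Col5a2 (0.580 CPM) exchanged places with Col4a5 (0.540 CPM).

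Ratios between chains of 1 mouse do not depend on library size and show whether chains of a type keep proportion. The mean log2 ratio of Col4a1 to Col4a2 was 0.79 ± 0.16 (SD, n = 5) in ASAH+ Etoh-Dox, 0.75 ± 0.23 (SD, n = 4) in ASAH− Etoh-Dox and 0.73 ± 0.06 (SD, n = 4) in ASAH+ Etoh mice, with exact permutation p-values of 0.492 to 0.886. The log2 ratio of Col1a1 to Col1a2 differed between groups by −0.09 to 0.25, with SDs of 0.25 to 0.32 within groups and exact permutation p-values of 0.229 to 0.635. Neither ratio differed beyond the spread between mice.

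Col4a5 against Col4a1, the minor against the major type IV chain, gave log2 ratios of −3.67, −3.32, −3.48, −3.78 and −3.30 in ASAH+ Etoh-Dox replicates 1 to 5, −2.77, −2.22, −2.79 and −2.79 in ASAH+ Etoh replicates 1 to 4, and −2.87, −2.57, −4.18 and −3.05 in ASAH− Etoh-Dox replicates 1 to 4. All induced mice were below all ASAH+ Etoh mice, and 3 of the 4 ASAH− Etoh-Dox mice were above all induced mice, the exception being replicate 3. The difference was −0.87 between ASAH+ Etoh-Dox (−3.51 ± 0.21, SD, n = 5) and ASAH+ Etoh (−2.65 ± 0.28, SD, n = 4), with an exact permutation p of 0.0159 and an adjusted p of 0.143 over the 9 ratio tests. Against ASAH− Etoh-Dox (−3.17 ± 0.70, SD, n = 4) it was −0.34 (exact permutation p = 0.333), and −0.68 (exact permutation p = 0.0357) without ASAH− Etoh-Dox replicate 3. An exact p of 0.0357 is the smallest that 5 mice against 3 allow. Replicate 3, the exception above, was singled out after the values were seen, so this p is a description. The groups without induction differed by −0.52 (exact permutation p = 0.200), and by −0.19 (exact permutation p = 0.400) without that mouse.

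**Figure D3:**
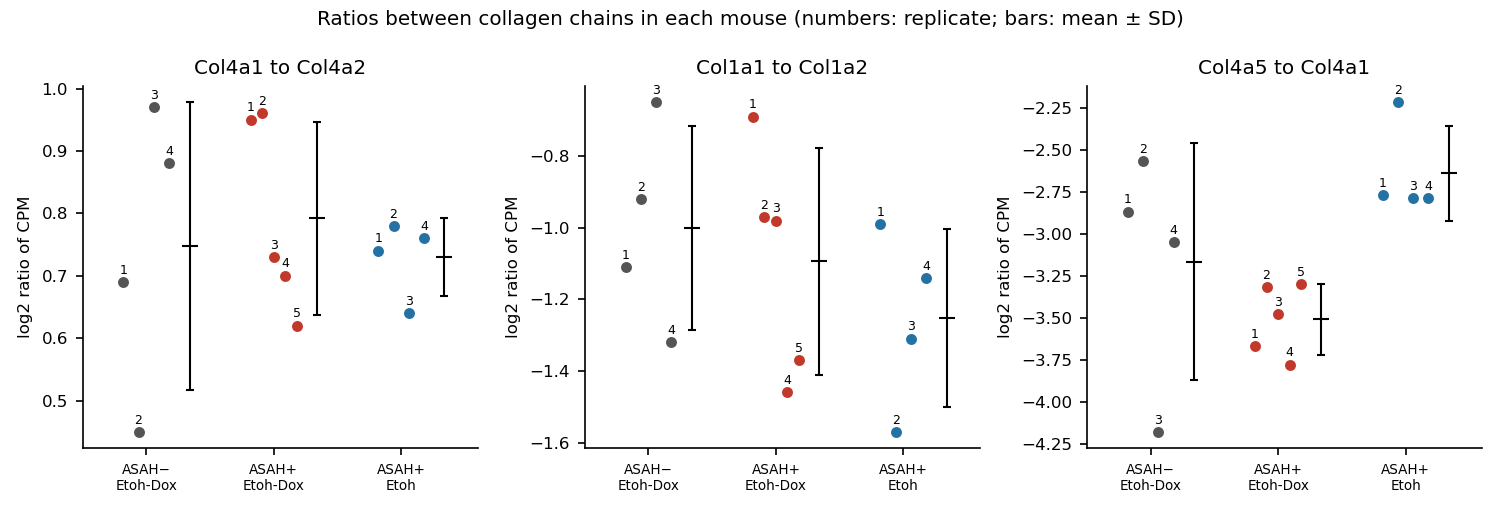
Log2 ratio of CPM between collagen chains in each of 13 mice, numbered by replicate, with bars for the mean ± SD of each group. The ratio of Col4a5 to Col4a1 lies between −3.78 and −3.30 in ASAH+ Etoh-Dox mice and between −2.79 and −2.22 in ASAH+ Etoh mice, with ASAH− Etoh-Dox replicate 3 at −4.18.

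Col1a1, Col1a2, Col3a1, Col4a1 and Col4a2 varied together across mice. Of 45 pairs, 17 had an adjusted p under 0.05 for Pearson's r over 13 mice (permutation tests, Benjamini-Hochberg over the 45 pairs), all with r above 0, and 11 did so within groups. Those 11 were the pairs among these genes and the pair of Col4a2 with Col18a1. The share among pairs of all genes was not measured. The 15 pairs among Col1a1, Col1a2, Col3a1, Col4a1, Col4a2 and Col14a1 had r from 0.66 to 0.95. Col1a1 and Col1a2 had r = 0.95 (permutation p = 1e-05, the smallest the permutations can give, adjusted p = 0.000112) and rho = 0.88 (permutation p = 0.000110, adjusted p = 0.00165), with r = 0.88 without the 2 farthest mice and 0.94 within groups. For Col1a1 and Col3a1 r was 0.94 (permutation p = 1e-05, adjusted p = 0.000112) and rho 0.92 (permutation p = 4e-05, adjusted p = 0.000900), with r = 0.88 without the 2 farthest mice and 0.94 within groups. Col4a1 and Col4a2 had r = 0.94 (permutation p = 1e-05, adjusted p = 0.000112) and rho = 0.93 (permutation p = 4e-05, adjusted p = 0.000900), with r = 0.86 without the 2 farthest mice and 0.92 within groups. These relations held without the 2 farthest mice, which were ASAH− Etoh-Dox replicate 3 and ASAH+ Etoh replicate 2.

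Some relations weakened without the 2 farthest mice of their pair. Col1a1 and Col14a1 had r = 0.66 (permutation p = 0.0141, adjusted p = 0.0397) and rho = 0.39 (permutation p = 0.187, adjusted p = 0.383), and r = 0.09 without those 2 mice. The r of Col14a1 with Col1a2, Col4a1, Col4a2 and Col3a1 was 0.33, 0.34, 0.35 and 0.66 without the 2 farthest mice of each pair. With all mice it was 0.73, 0.77, 0.68 and 0.71. Of these 5 pairs with Col14a1, 0 had an adjusted p under 0.05 for rho (permutation tests, adjusted p of 0.138 to 0.408) or within groups (0.102 to 0.254). Over all mice Col4a5 was not clearly related to the others: its r with the other 9 genes lay between −0.59 and 0.36, with 0 of 9 pairs at an adjusted p under 0.05. With Col4a1, r was 0.24 (permutation p = 0.427, adjusted p = 0.641) and rho 0.23 (permutation p = 0.459, adjusted p = 0.689), with r = 0.56 without the 2 farthest mice and 0.35 within groups. Within groups the r of Col4a5 was 0.34 to 0.46 with Col1a1, Col1a2, Col3a1, Col4a1, Col4a2 and Col5a2. It was −0.20 to 0.11 with Col14a1, Col18a1 and Col27a1, and the median of all 45 pairs within groups was 0.37. Col27a1 had no r above 0 (−0.59 to −0.02), and its lowest was with Col4a5 (permutation p = 0.0369, adjusted p = 0.0923, rho −0.64 with permutation p = 0.0207 and adjusted p = 0.0776), at −0.20 within groups. For both Col27a1 and Col5a2, 0 of 9 pairs had an adjusted p under 0.05, and for Col18a1 2 did, the higher with Col4a2 (r = 0.79, permutation p = 0.00144, adjusted p = 0.00589, rho 0.71 with permutation p = 0.00922 and adjusted p = 0.0377). The other, with Col4a1, had r = 0.64 (permutation p = 0.0176, adjusted p = 0.0466), but r = 0.23 without the 2 farthest mice. Its adjusted p was 0.163 for rho and 0.262 within groups (permutation tests).

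**Figure D4:**
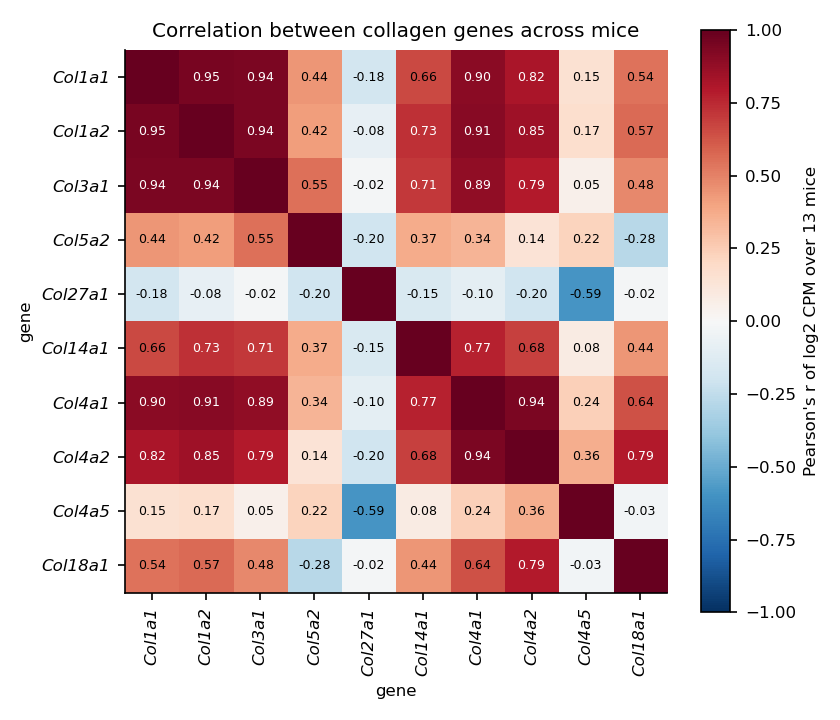
Pearson's r of log2 CPM over 13 mice for each pair of the 10 collagen genes, on a color scale from −1 to 1. Type I, III and IV chains other than Col4a5 form a block with r of 0.79 or more, and Col27a1 has values from −0.59 to −0.02.

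Promoters are shown for Col1a2 and Col3a1, which varied together (r = 0.94, or 0.95 within groups). Col4a5 is shown too, and its r with them was 0.17 and 0.05 over all mice, and 0.34 and 0.40 within groups. RefSeq promoters on GRCm38.p6 were found by symbol for 7 of the 10 genes, and Col1a1, Col5a2 and Col14a1 are named only. In the 250 bases before each RefSeq start, motifs were searched on both strands: CCAAT (found in 33.8% of 32851 promoters), GGGCGG (in 32.7%) and TATAAA (in 12.4%). The stretches below lie on the plus strand and leave out bases annotated as exon. In the Col1a2 stretch (chr6:4505370-4505492) capitals mark GGGCGG, found 2 times, and the part of its searched bases left out here held CCAAT. The Col3a1 stretch (chr1:45311288-45311537) has TATAAA in capitals, and the Col4a5 stretch (chrX:141475169-141475384) has CCAAT, with GGGCGG in the part left out. Of the promoters not shown, those of Col4a1 and Col4a2 held CCAAT and those of Col4a2 and Col27a1 held GGGCGG. Col18a1 has 2 RefSeq promoters, of which the one at chr10:77166531-77166780 held both motifs and the one at chr10:77113706-77113955 held 0 of the 3. A match describes letters in this window and is no evidence of a bound site.
Col1a2: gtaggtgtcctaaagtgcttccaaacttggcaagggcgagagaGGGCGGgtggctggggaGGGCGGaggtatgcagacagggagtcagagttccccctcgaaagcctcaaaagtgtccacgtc
Col3a1: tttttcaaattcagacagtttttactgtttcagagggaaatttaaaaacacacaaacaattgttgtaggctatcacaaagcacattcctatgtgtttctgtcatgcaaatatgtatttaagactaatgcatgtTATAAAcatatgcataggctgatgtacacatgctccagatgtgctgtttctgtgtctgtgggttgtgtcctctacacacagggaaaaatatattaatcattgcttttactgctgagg
Col4a5: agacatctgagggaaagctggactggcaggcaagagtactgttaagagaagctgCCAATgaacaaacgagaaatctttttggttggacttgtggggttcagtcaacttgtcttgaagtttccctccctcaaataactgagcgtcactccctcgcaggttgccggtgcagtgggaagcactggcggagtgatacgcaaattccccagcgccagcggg

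The other genes of collagen biology were taken from 7 lists. Over all lists and comparisons edgeR called 0 genes at an adjusted p under 0.1, so the genes named below are those with the smallest unadjusted p of their list, and their values are descriptions. DESeq2 on all 13 mice gave few genes an adjusted p between ASAH+ Etoh-Dox and ASAH+ Etoh: 0 of the other collagen genes, 7 of modification and folding, 3 of propeptide removal and cross-linking, 5 of breakdown, and 1 each of receptors, basement membrane partners and TGF-beta signaling. Its counts of 0 in that comparison therefore say little. The lists were also fitted without ASAH− Etoh-Dox replicate 3, an alternative chosen after seeing the data, in which edgeR again called 0 genes. The counts at an unadjusted p under 0.05 given for each list stand beside 409, 1044 and 1316 of all 14317 genes in the 3 comparisons. Of the other 34 collagen genes in the table, 15 were tested. Their median log2 fold change was 0.18 between ASAH+ and ASAH− Etoh-Dox mice (8 higher, 7 lower), 0.28 between ASAH+ Etoh-Dox and ASAH+ Etoh (13 higher, 2 lower) and 0.31 between ASAH− Etoh-Dox and ASAH+ Etoh (12 higher, 3 lower), beside 0.00, 0.01 and 0.02 for all genes. An unadjusted p under 0.05 was found for 0, 0 and 1 of them, and DESeq2 on all 13 mice called 0. The genes with the smallest p were Col15a1 (0.50, SE 0.30), a basement membrane zone collagen, Col5a3 (0.84, SE 0.47) of type V and Col16a1 (0.53, SE 0.24, edgeR adjusted p = 0.524), in the same order. In the fit without ASAH− Etoh-Dox replicate 3 the medians in the comparisons with ASAH− Etoh-Dox were 0.11 and 0.19, with 12 of 16 genes higher in each, and Col16a1 had 0.38 (SE 0.24).

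The 16 tested genes of collagen modification and folding had medians of −0.02, −0.02 and 0.06 in the same 3 comparisons, with 8, 7 and 10 genes higher. An unadjusted p under 0.05 was found for 1, 2 and 2 genes, and DESeq2 called 0. Serpinh1, the collagen chaperone Hsp47, measured 15.2, 13.6, 16.5 and 7.51 CPM in ASAH− Etoh-Dox replicates 1 to 4 and 13.9, 8.11, 6.94, 8.74 and 8.15 CPM in ASAH+ Etoh-Dox replicates 1 to 5. The groups overlapped, and the log2 fold change was −0.52 (SE 0.24, edgeR adjusted p = 1.00). Sec23a, a coat protein needed to export procollagen, had −0.29 (SE 0.10, edgeR adjusted p = 0.551) between ASAH+ Etoh-Dox and ASAH+ Etoh mice. P3h3, of the prolyl hydroxylase family, had 0.62 (SE 0.20, edgeR adjusted p = 0.392) between ASAH− Etoh-Dox and ASAH+ Etoh mice. Leaving out ASAH− Etoh-Dox replicate 3 gave medians of 0.04 and 0.02 against ASAH+ Etoh-Dox and ASAH+ Etoh, −0.39 (SE 0.26) for Serpinh1 and 0.53 (SE 0.21) for P3h3.

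For propeptide removal and cross-linking 13 genes were tested, and their medians were −0.23 (2 higher, 11 lower), 0.10 (8 higher, 5 lower) and 0.37 (13 higher, 0 lower). An unadjusted p under 0.05 was found for 0, 0 and 1. The gene with the smallest p was Pcolce, the enhancer of the proteinase that removes the C-propeptide of fibrillar collagens. Pcolce measured 7.81, 6.59, 10.2 and 6.22 CPM in ASAH− Etoh-Dox replicates 1 to 4 and 4.42, 3.66, 4.73 and 5.78 CPM in ASAH+ Etoh replicates 1 to 4, without overlap. DESeq2 on all 13 mice called it there (adjusted p = 0.0582), beside 1.49% of all genes, and 0 genes of the list in the other comparisons. The log2 fold change of Pcolce there was 0.73 (SE 0.19, edgeR adjusted p = 0.389). Against ASAH+ Etoh the ASAH+ Etoh-Dox mice had 0.37 (SE 0.18, edgeR adjusted p = 0.702). Dcn, the proteoglycan decorin, had −0.23 (SE 0.11, edgeR adjusted p = 1.00) between ASAH+ and ASAH− Etoh-Dox mice. With ASAH− Etoh-Dox replicate 3 left out, the first and last medians were −0.14 (4 higher, 9 lower) and 0.17 (11 higher, 2 lower). Pcolce then had 0.57 (SE 0.18, edgeR adjusted p = 0.751) against ASAH+ Etoh, and Dcn −0.18 (SE 0.12).

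The 14 tested genes of collagen breakdown and its inhibitors had medians of −0.15, 0.10 and 0.14, with 3, 8 and 10 genes higher. Of these 1, 0 and 1 had an unadjusted p under 0.05, and DESeq2 called 0. Ctsk, a cathepsin that cleaves collagen, was expressed at 0.230 to 1.10 CPM and had −0.71 (SE 0.31, edgeR adjusted p = 1.00) between ASAH+ and ASAH− Etoh-Dox mice and 1.02 (SE 0.35, edgeR adjusted p = 0.418) between ASAH− Etoh-Dox and ASAH+ Etoh. Ctsl, a broadly expressed cathepsin, had −0.39 (SE 0.18, edgeR adjusted p = 0.680) between ASAH+ Etoh-Dox and ASAH+ Etoh mice. In the breakdown list, leaving out ASAH− Etoh-Dox replicate 3 turned the first median to 0.03 and the last to −0.06, and Ctsk had −0.59 (SE 0.35) and 0.89 (SE 0.38). Among collagen receptors 7 genes were tested, with medians of −0.06, −0.12 and 0.01 and 2, 3 and 4 genes higher. An unadjusted p under 0.05 was found for 0, 1 and 1 of them, and DESeq2 called 0. Those with the smallest p were Adgrg1 (−0.36, SE 0.28), the integrin chain Itga1 (−0.21, SE 0.08, edgeR adjusted p = 0.615) and the inhibitory immune receptor Lair1 (0.61, SE 0.27, edgeR adjusted p = 0.514), 1 for each comparison. Without the same mouse the first and last medians were −0.07 and −0.14, Adgrg1 had −0.15 (SE 0.29) and Lair1 0.58 (SE 0.30).

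Basement membrane partners of type IV collagen included 17 tested genes, with medians of −0.20 (3 higher, 14 lower), −0.05 (7 higher, 10 lower) and 0.06 (11 higher, 6 lower). Of these 4 (1 higher, 3 lower), 3 (1 higher, 2 lower) and 3 (all higher) had an unadjusted p under 0.05. Without ASAH− Etoh-Dox replicate 3 the first and last of these counts were 2 and 2. Lamc3, a laminin gamma chain, measured 2.63, 3.28, 2.10, 2.49 and 2.78 CPM in ASAH+ Etoh-Dox replicates 1 to 5, 4.66, 3.89, 3.84 and 3.47 CPM in ASAH− Etoh-Dox replicates 1 to 4, and 3.64, 3.54, 5.06 and 3.59 CPM in ASAH+ Etoh replicates 1 to 4. The induced mice were below all others. Lamc3 was named for the smallest p of its list in both comparisons of induced mice, where 0.887% and 2.58% of all genes did not overlap. Its log2 fold change was −0.58 in both comparisons of induced mice (SE 0.16 in each, edgeR adjusted p = 1.00 against ASAH− Etoh-Dox and adjusted p = 0.507 against ASAH+ Etoh) and 0.00 (SE 0.17) between the other groups. Lamb1, a laminin beta chain, had 0.43 (SE 0.12, edgeR adjusted p = 0.389) between ASAH− Etoh-Dox and ASAH+ Etoh mice. There DESeq2 on all 13 mice called 2 genes of the list, Lama1 and Lamb1, of 13 with an adjusted p. It called 1.49% of all genes in that comparison, and 0 genes of the list in the other comparisons. In the fit without ASAH− Etoh-Dox replicate 3 the first and last medians were −0.16 and −0.06, Lamc3 had −0.59 (SE 0.18) between ASAH+ and ASAH− Etoh-Dox mice and Lamb1 0.40 (SE 0.13). Nid2, a nidogen named after its values were seen, lay the other way from Lamc3, with 0.67 (SE 0.22, edgeR adjusted p = 1.00) against ASAH− Etoh-Dox, 0.65 (SE 0.25) without that mouse, and 0.64 (SE 0.23, edgeR adjusted p = 0.554) against ASAH+ Etoh.

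The 21 tested genes of TGF-beta signaling and stellate activation had medians of −0.21 (6 higher, 15 lower), −0.08 (6 higher, 15 lower) and 0.13 (14 higher, 7 lower). Of these 2, 0 and 2 had an unadjusted p under 0.05, and without ASAH− Etoh-Dox replicate 3 the first and last counts were 0 and 1. Tgfbi, a matrix protein induced by TGF-beta, measured 48.4, 50.4, 68.6 and 53.7 CPM in ASAH− Etoh-Dox replicates 1 to 4, 48.5, 50.0, 48.0, 42.1 and 35.0 CPM in ASAH+ Etoh-Dox replicates 1 to 5, and 39.2, 39.3, 36.1 and 41.8 CPM in ASAH+ Etoh replicates 1 to 4. The ASAH− Etoh-Dox mice lay above all ASAH+ Etoh mice, and the induced mice spread across both. Between ASAH− Etoh-Dox and ASAH+ Etoh DESeq2 on all 13 mice called Tgfbi (adjusted p = 0.0603), beside 1.49% of all genes. It called 0 genes of the list in the other comparisons. The log2 fold change of Tgfbi between ASAH− Etoh-Dox and ASAH+ Etoh was 0.50 (SE 0.13, edgeR adjusted p = 0.389). Between ASAH+ and ASAH− Etoh-Dox mice it was −0.31 (SE 0.12, edgeR adjusted p = 1.00). When its highest mouse, ASAH− Etoh-Dox replicate 3, was left out, Tgfbi had 0.38 (SE 0.11) and −0.18 (SE 0.11) in these comparisons, and the list had medians of 0.04 and −0.17. Pdgfa, a growth factor for stellate cells, had 0.44 (SE 0.21, edgeR adjusted p = 0.691) between ASAH+ Etoh-Dox and ASAH+ Etoh mice.

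Markers of the cells that make or surround collagen were measured in the same livers, as sums of CPM over 12 lists. The 11 hepatic stellate cell markers, of which Dcn was the most abundant (mean 141 CPM) and none was at 0, summed to 469, 468, 568 and 530 CPM in ASAH− Etoh-Dox replicates 1 to 4, 427, 444, 456, 458 and 404 CPM in ASAH+ Etoh-Dox replicates 1 to 5, and 457, 393, 422 and 472 CPM in ASAH+ Etoh replicates 1 to 4. ASAH− Etoh-Dox mice lay above all induced mice, and 1 ASAH+ Etoh mouse reached their range. The exact permutation p was 0.0159 between ASAH+ and ASAH− Etoh-Dox mice, 0.905 between ASAH+ Etoh-Dox and ASAH+ Etoh and 0.0857 between the others, and the lowest adjusted p over the 36 comparisons of marker sums was 0.286. All 11 markers were lower in ASAH+ than in ASAH− Etoh-Dox mice, with a median log2 fold change of −0.19, in the comparison in which 9 of 10 collagen genes were lower. Other lists were lower there too: 8 of 8 sinusoidal endothelial, 7 of 7 Kupffer cell, 6 of 6 cholangiocyte, 4 of 4 tested vascular smooth muscle and 7 of 8 hepatocyte markers, with medians of −0.36, −0.30, −0.34, −0.19 and −0.23. Lower were also 5 of 7 tested portal fibroblast and 4 of 6 other endothelial markers (medians −0.09 and −0.20) and 2 of 2 tested neutrophil markers (median −0.46), whereas 5 of 6 lymphocyte markers were higher (median 0.20). When ASAH− Etoh-Dox replicate 3 was left out the stellate sums still did not overlap (exact permutation p = 0.0357, the smallest that 5 against 3 allow). In that fit 9 of 11 stellate markers were lower (median −0.10). Of the other lists in that fit, 7 of 8 sinusoidal endothelial, 4 of 7 Kupffer cell, 6 of 6 cholangiocyte, 4 of 4 vascular smooth muscle, 6 of 8 hepatocyte and 2 of 2 neutrophil markers were lower (medians −0.21, −0.01, −0.47, −0.18, −0.21 and −0.32). Other endothelial markers divided evenly, 3 of 6 lower (median −0.06), portal fibroblast markers turned to 4 of 7 higher (median 0.11), and 4 of 6 lymphocyte markers were higher (median 0.12). The part of stellate cell RNA in the collagen differences was not tested. The lists of stellate cell markers and stellate activation share Pdgfrb, and Dcn is also in the list of propeptide removal and cross-linking. Acta2 and Tagln are in both the vascular smooth muscle and the stellate activation list.

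Kupffer cell markers (7 genes, Cd5l the most abundant with a mean of 138 CPM) summed to 365, 365, 760 and 452 CPM in ASAH− Etoh-Dox replicates 1 to 4, 508, 509, 269, 428 and 271 CPM in ASAH+ Etoh-Dox replicates 1 to 5, and 350, 272, 303 and 324 CPM in ASAH+ Etoh replicates 1 to 4. ASAH− Etoh-Dox mice were above all ASAH+ Etoh mice (exact permutation p = 0.0286, the smallest that 4 against 4 allow, adjusted p = 0.286). With ASAH− Etoh-Dox replicate 3 left out they remained above (exact permutation p = 0.0571, the smallest that 4 against 3 allow), and the median of the 7 genes between ASAH+ and ASAH− Etoh-Dox mice was −0.01. The high sum of ASAH− Etoh-Dox replicate 3 included Marco at 91.5 CPM, named after its value was seen, against 6.54 to 34.1 CPM in the other mice.

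Sinusoidal endothelial markers (8 genes, Dnase1l3 the most abundant with a mean of 47.8 CPM) summed to 219, 215, 173, 255 and 233 CPM in ASAH+ Etoh-Dox replicates 1 to 5, 248, 206, 366 and 268 CPM in ASAH− Etoh-Dox replicates 1 to 4, and 324, 230, 292 and 302 CPM in ASAH+ Etoh replicates 1 to 4. Induced mice tended to the lower end without being separate (exact permutation p = 0.0476 against ASAH+ Etoh and 0.175 against ASAH− Etoh-Dox, adjusted p = 0.286 and 0.623). By edgeR 0 of these 8 genes were called in each comparison, with 4, 6 and 0 at an unadjusted p under 0.05, whereas DESeq2 on all 13 mice called Clec4g and Fcgr2b between ASAH+ Etoh-Dox and ASAH+ Etoh. DESeq2 gave an adjusted p to 3 of the 8 there, and called 2.97% of the 3198 genes with an adjusted p. Of the 8 genes, 8 were lower in induced mice against ASAH− Etoh-Dox and 7 against ASAH+ Etoh, the comparisons in which Col4a5 was lower. Across the 13 mice the sinusoidal sum and Col4a5 had r = 0.27 (permutation p = 0.374, adjusted p = 0.754 over the 10 relations) and rho = 0.26 (permutation p = 0.396, adjusted p = 0.566), with r = 0.19 without the 2 farthest mice and −0.36 within groups. The part of these cells in the level of Col4a5 was not tested otherwise. With ASAH− Etoh-Dox replicate 3 left out, 7 of the 8 genes were lower in induced mice against ASAH− Etoh-Dox (median −0.21) and the exact permutation p of the sums was 0.393. In that edgeR fit 0 of the 8 had an unadjusted p under 0.05 in this comparison. Between ASAH− Etoh-Dox and ASAH+ Etoh mice 3 did, and all 8 were lower in ASAH− Etoh-Dox (median −0.28, beside −0.12 with all mice).

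The other marker lists covered hepatocytes, further endothelial, duct, mesenchymal and immune cells, and tissue carried over. Hepatocyte markers (8 genes, Alb the most abundant) summed to 91809 to 142878 CPM, other endothelial markers (6 genes, Cdh5, mean 21.2 CPM) to 43.4 to 89.5 CPM and cholangiocyte markers (7 genes, Spp1, mean 39.2 CPM) to 32.1 to 80.5 CPM. Between ASAH+ and ASAH− Etoh-Dox mice the exact permutation p was 0.0317 for hepatocyte and for other endothelial markers and 0.429 for cholangiocyte markers. When ASAH− Etoh-Dox replicate 3 was left out it was 0.0714 for hepatocyte and for other endothelial markers. DESeq2 on all 13 mice called the hepatocyte markers Serpina1a between ASAH+ and ASAH− Etoh-Dox, Serpina1a and Cps1 between ASAH+ Etoh-Dox and ASAH+ Etoh, and Apoa1 between ASAH− Etoh-Dox and ASAH+ Etoh, whereas edgeR called 0 of the 8. These 3 genes, like Clec4g and Fcgr2b, are named because DESeq2 called them. Of all genes with an adjusted p, DESeq2 called 0.0756%, 2.97% and 1.49% in the same order of comparisons. Portal fibroblast markers (8 genes, Entpd2, mean 3.41 CPM) summed to 8.83 to 16.4 CPM and vascular smooth muscle markers (6 genes, Smtn, mean 4.21 CPM) to 9.95 to 16.0 CPM, with exact permutation p-values of 0.657 to 0.825 and 0.190 to 0.905. Lymphocyte markers (6 genes, Trbc2, mean 0.793 CPM) summed to 1.57 to 5.87 CPM, with an exact permutation p of 0.0476 between ASAH+ Etoh-Dox and ASAH+ Etoh. Neutrophil markers (5 genes, S100a9, mean 0.772 CPM) summed to 0.477 to 1.93 CPM, and Ly6g, Mpo and Elane averaged under 0.1 CPM. The pancreas list (6 genes) and the adipose list (4 genes) had Cela3b and Adipoq as their most abundant genes, each with a mean of 0.0186 CPM.

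The mean log2 CPM of the 4 fibrillar genes Col1a1, Col1a2, Col3a1 and Col5a2 was set beside these sums, a choice made after the values were seen and given without a p because it is a score over chosen genes. Col27a1, also fibrillar, was not in the mean, and its r with the 4 genes was −0.20 to −0.02. With the Kupffer cell sum r was 0.85 and rho 0.75 over 13 mice, 0.67 without ASAH− Etoh-Dox replicate 3 and ASAH+ Etoh-Dox replicate 2 and 0.80 within groups. With the stellate cell sum r was 0.63 and rho 0.51, 0.23 without the 2 farthest mice and 0.56 within groups, so that this relation rested on those mice, ASAH− Etoh-Dox replicate 3 and ASAH+ Etoh replicate 2. For the sinusoidal endothelial sum r was 0.18 and rho −0.05, with r = −0.34 without ASAH− Etoh-Dox replicate 3 and ASAH+ Etoh-Dox replicate 3 and 0.40 within groups, so its sign was not settled. For the hepatocyte sum r was 0.01 and rho 0.03 (r = 0.21 without the 2 farthest mice and −0.15 within groups), and for the total counts r was 0.20 and rho 0.29 (0.26 and −0.03).

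**Figure D5:**
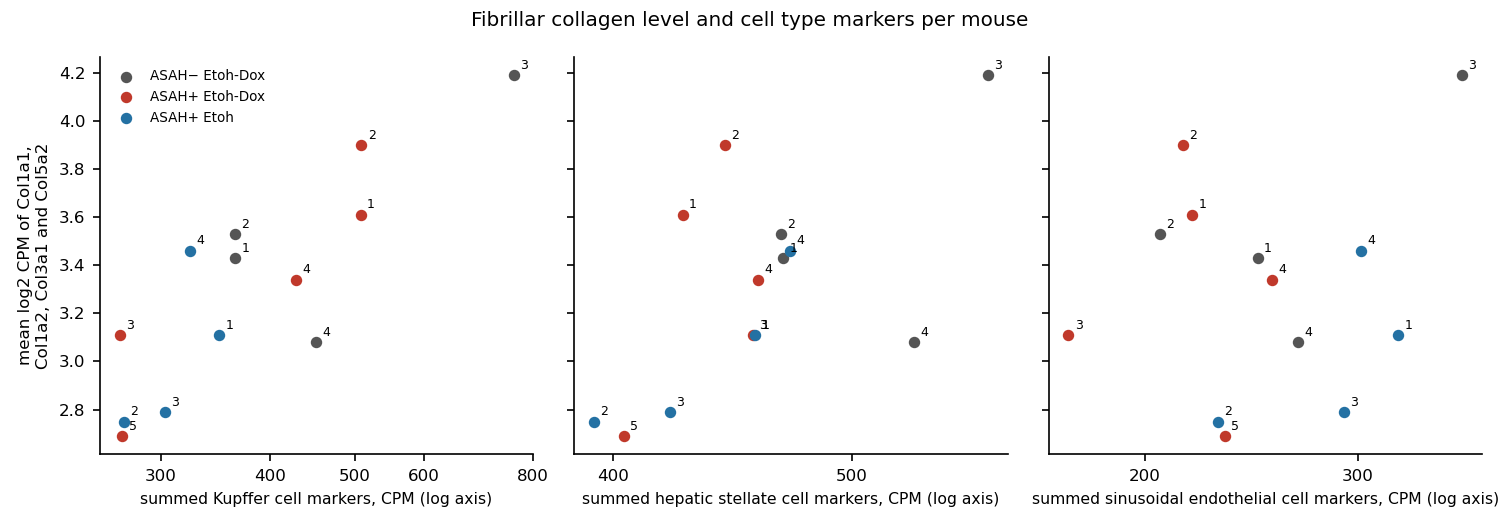
Mean log2 CPM of Col1a1, Col1a2, Col3a1 and Col5a2 against the summed CPM (log axis) of Kupffer, hepatic stellate and sinusoidal endothelial cell markers in 13 mice, numbered by replicate. ASAH− Etoh-Dox replicate 3 is highest on every axis, at a fibrillar mean of 4.19 and Kupffer cell sum of 760 CPM, and r is 0.85, 0.63 and 0.18 in the 3 panels.

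Genes most like the fibrillar mean in pattern were sought among 11102 genes. The 5 with the highest Pearson r over 13 mice were Tmsb4x (r = 0.96, rho = 0.93), Csrp1 (r = 0.96, rho = 0.96), Cd86 (r = 0.95, rho = 0.87), Il18bp (r = 0.92, rho = 0.87) and Fcer1g (r = 0.92, rho = 0.85), and within groups their r was 0.90 to 0.95. Ranking by Spearman's rho shared 2 of the 5. Those most like Col4a5 were Rdh16f2 (r = 0.84, rho = 0.84), Yrdc (r = 0.78, rho = 0.71), Ung (r = 0.78, rho = 0.86), Rlim (r = 0.78, rho = 0.71) and Serpina1b (r = 0.77, rho = 0.81). Here ranking by rho shared 3 of the 5, and within groups r was 0.36 for Serpina1b and 0.74 for Yrdc, the lowest and highest of the 5. These are the extremes of many genes and are given as a description.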

How the data were processed

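Whole-liver RNaseq of 13 mice in 3 groups was analysed. For each gene an estimated count (expected count) was deposited by the authors, from salmon with the GENCODE M19 annotation (GRCm38.p6) and tximport. They are whole numbers, not scaled for library size. The salmon version is not given. Gene positions and lengths came from GENCODE M21.

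All genes were fitted together in R 4.3.3 with edgeR 4.0.16 (filterByExpr with the 3 groups, 14317 genes kept, TMM scaling, robust quasi-likelihood F test over all 13 mice with group means), and p-values were adjusted by Benjamini-Hochberg over all genes tested with a threshold of 0.1. SE is the absolute log2 fold change over the root of F. Groups were also compared by exact two-sided permutation of mice on log2 CPM with a prior count of 2, whose smallest p is 0.0159 for 5 mice against 4 and 0.0286 for 4 against 4. Correlations used 100000 permutations. Groups do not overlap where every mouse of 1 group lies above every mouse of the other. Python 3.11.15, numpy 2.4.6, scipy 1.17.1 and pandas 2.3.3 were used, and the tests were tested on simulated data.

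Alternatives were DESeq2 1.42.0, its size factors, no count filter, the compared groups alone, the replicate number as a block, an adjusted p under 0.05, a prior count of 0.5, the longest transcript as length, and each mouse left out. Library totals as scaling, and the lists without ASAH− Etoh-Dox replicate 3, were added after seeing the data. Genes named were the 10 collagen genes, Asah1, from each of 7 gene lists the genes called and otherwise the gene with the smallest p in each comparison, the most abundant gene of each of 12 marker lists, and the 5 genes most correlated with the fibrillar mean and with Col4a5 among genes with a mean log2 CPM above 1. The collagen genes and the lists were chosen with earlier results of these data known.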

Additional observations from a re-analysis of the deposited data

Results flagged for a closer look

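Of 75 groups of mice examined for a single mouse far from the rest of its group by Dixon's criterion, 6 held one, and chance marks about 1 in 20 groups. Col5a2 was 7.56 CPM in ASAH+ Etoh-Dox replicate 2, with the other mice of the group at 2.43 to 3.79 CPM. Col27a1 was 7.05 CPM in ASAH+ Etoh replicate 4, with the others at 5.25 to 5.53 CPM. The log2 ratio of Col4a5 to Col4a1 was −2.22 in ASAH+ Etoh replicate 2, with the others at −2.79 to −2.77. Portal fibroblast markers summed to 14.9 CPM in ASAH+ Etoh replicate 4, above the others, of which the lowest had 10.6 CPM. Vascular smooth muscle markers summed to 10.2 CPM in ASAH− Etoh-Dox replicate 4, below the others, of which the lowest had 15.5 CPM. Other endothelial markers summed to 89.5 CPM in ASAH− Etoh-Dox replicate 3, with the others at 55.1 to 58.1 CPM.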

How the results depend on the processing

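Of 570 fold changes of collagen genes under the alternatives, 542 kept their sign and their side of the threshold, 8 kept their sign but had no adjusted p (DESeq2 on all 13 mice, ASAH+ Etoh-Dox against ASAH+ Etoh), 19 took the other sign, all with a mouse left out, and 1 passed the threshold, Col4a5 in DESeq2 on ASAH+ Etoh-Dox and ASAH+ Etoh mice alone, so that 1 collagen gene was called there. Of the 570, 390 leave out a mouse, and where that mouse is of the group not compared the fold change hardly moves. The number of all genes called moved more, and the cause was not tested. Between ASAH+ and ASAH− Etoh-Dox mice it was 12 with DESeq2 on all 13 mice, 11 with DESeq2 and 1 with edgeR on the groups compared, and 1 to 2 with a mouse left out. Between ASAH+ Etoh-Dox and ASAH+ Etoh it was 4 without the count filter, 95 with DESeq2 on all mice and 113 on the compared groups, and 2 to 8 with a mouse left out. Between ASAH− Etoh-Dox and ASAH+ Etoh it was 0 at an adjusted p under 0.05, 150 and 168 with DESeq2, 0 with edgeR on the groups compared, and 0 to 2 with a mouse left out. Replicate numbers do not pair mice of different groups (mean correlation of deviations −0.046 for same-numbered and 0.013 for other pairs). With the replicate number as a block, 1, 2 and 0 genes were called in the 3 comparisons, 0 of them collagen genes. The medians of the 10 collagen genes were then −0.15, 0.26 and 0.42.

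With 1 mouse left out, the log2 fold changes that took the other sign ranged as follows. Between ASAH+ and ASAH− Etoh-Dox mice, Col1a1 ranged from −0.62 to 0.06, Col1a2 from −0.41 to 0.02, Col3a1 from −0.29 to 0.07, Col5a2 from −0.46 to 0.05 and Col18a1 from −0.14 to 0.01. Between ASAH+ Etoh-Dox and ASAH+ Etoh, Col4a1 ranged from −0.04 to 0.38, Col4a2 from −0.12 to 0.30, Col5a2 from −0.13 to 0.44 and Col14a1 from −0.02 to 0.18. Between ASAH− Etoh-Dox and ASAH+ Etoh, Col4a5 ranged from −0.23 to 0.12 and Col27a1 from −0.13 to 0.31.

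The ratio differences, with 1 mouse left out, ranged as follows in the comparisons of ASAH+ with ASAH− Etoh-Dox, ASAH+ Etoh-Dox with ASAH+ Etoh, and ASAH− Etoh-Dox with ASAH+ Etoh mice. Col4a1 to Col4a2 differed by −0.05 to 0.12, 0.02 to 0.11 and −0.06 to 0.12. For Col1a1 to Col1a2 the ranges were −0.20 to 0.02, 0.05 to 0.25 and 0.14 to 0.36, and for Col4a5 to Col4a1 they were −0.68 to −0.14, −0.92 to −0.72 and −0.72 to −0.19.

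With library totals as scaling, an alternative chosen after seeing the data, 0 collagen genes had groups that did not overlap in the comparisons of induced mice, against 1 with TMM and with DESeq2 size factors. Without ASAH− Etoh-Dox replicate 3, likewise chosen after seeing the data, list medians took the other sign as follows. Between ASAH+ and ASAH− Etoh-Dox mice they were 0.04 for modification and folding, 0.03 for breakdown and 0.11 for portal fibroblast markers. Between ASAH− Etoh-Dox and ASAH+ Etoh mice they were −0.06 for breakdown, −0.14 for receptors, −0.06 for basement membrane partners, −0.01 for portal fibroblast markers and −0.07 for other endothelial markers. Counts at an unadjusted p under 0.05 in these comparisons were then 0 and 0 for other collagen genes and for receptors. They were 0 and 1 for modification and folding, propeptide removal and cross-linking, and breakdown, beside 319 and 881 of all genes.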
